A study of Mus musculus and Homo sapiens with 90 samples.

Results

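The genes described here are 8 genes of gluconeogenesis and its hormonal control, of 58230 Ensembl gene entries measured by RNA-seq in HepG2 cells. They were chosen by Ensembl ID, with no measured value in the rule, as PC, PCK1, PCK2, FBP1, G6PC1, TAT, PPARGC1A and IGFBP1. Earlier results of these data were known when the choice was made. HepG2 is an established human liver cancer line, labelled p53-WT, that was cultured in high-glucose medium with serum. The series holds 90 samples, of which 82 are reporter assay libraries of regulatory regions, and only the other 8, the RNA-seq libraries, measure these genes.

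The 8 libraries form 4 groups of 2, all taken at 48 h. Cells of 1 group are labelled as the media control and are called the medium group. The other 3 groups received metabolites collected from a microbial community grown in vitro, at a dilution of 1:32 in the culture medium. That community had been given solvent, the antimicrobial cyclic peptide wLwKhShK, or its control diastereomer WlWkHsHK, labelled diast. The groups are called solvent, wLwKhShK and diast here, after what the community had been given. The labels do not say whether any peptide was carried over to the cells. The columns of the medium group are headed GAM, and the labels do not say what, if anything, was added to these cells. The libraries held 17019364 to 25594588 expected counts, and in each group the 2 libraries lay further apart than counting alone would place them. The labels do not say whether the 2 replicates came from separate cultures, so every p-value measures the spread between these libraries, which may be technical. HepG2 is a single line. Its identity was not checked against other liver marker genes, because the tables do not pair IDs with symbols.

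Gluconeogenesis makes glucose from pyruvate, lactate, glycerol and amino acids, and in the body it is chiefly a task of the liver. Pyruvate carboxylase (PC) and the phosphoenolpyruvate carboxykinases (PCK1 in the cytosol, PCK2 in mitochondria) bypass the last step of glycolysis, fructose-1,6-bisphosphatase (FBP1) bypasses phosphofructokinase, and glucose-6-phosphatase (G6PC1) releases free glucose. Glucagon and glucocorticoids raise the programme in fasting, partly through the coactivator PGC-1alpha (PPARGC1A), and insulin lowers it. Tyrosine aminotransferase (TAT) and IGFBP1, a secreted binding protein of insulin-like growth factors, are classic liver genes under the same hormones.

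PCK2 fell in all 3 metabolite groups against medium, most in the wLwKhShK group, where it lost 57.2% of its medium level. IGFBP1 fell in all 3 as well, and PC rose in all 3. TAT fell in the wLwKhShK and diast groups, while PPARGC1A passed the test against medium in none of them. PCK1, FBP1 and G6PC1 were near the limit of measurement, and of these only G6PC1 passed a test, being higher in the solvent group than in medium. G6PC1 entered that test only through metabolite groups, in which it read higher than in medium, as described below.

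**Figure D1:**
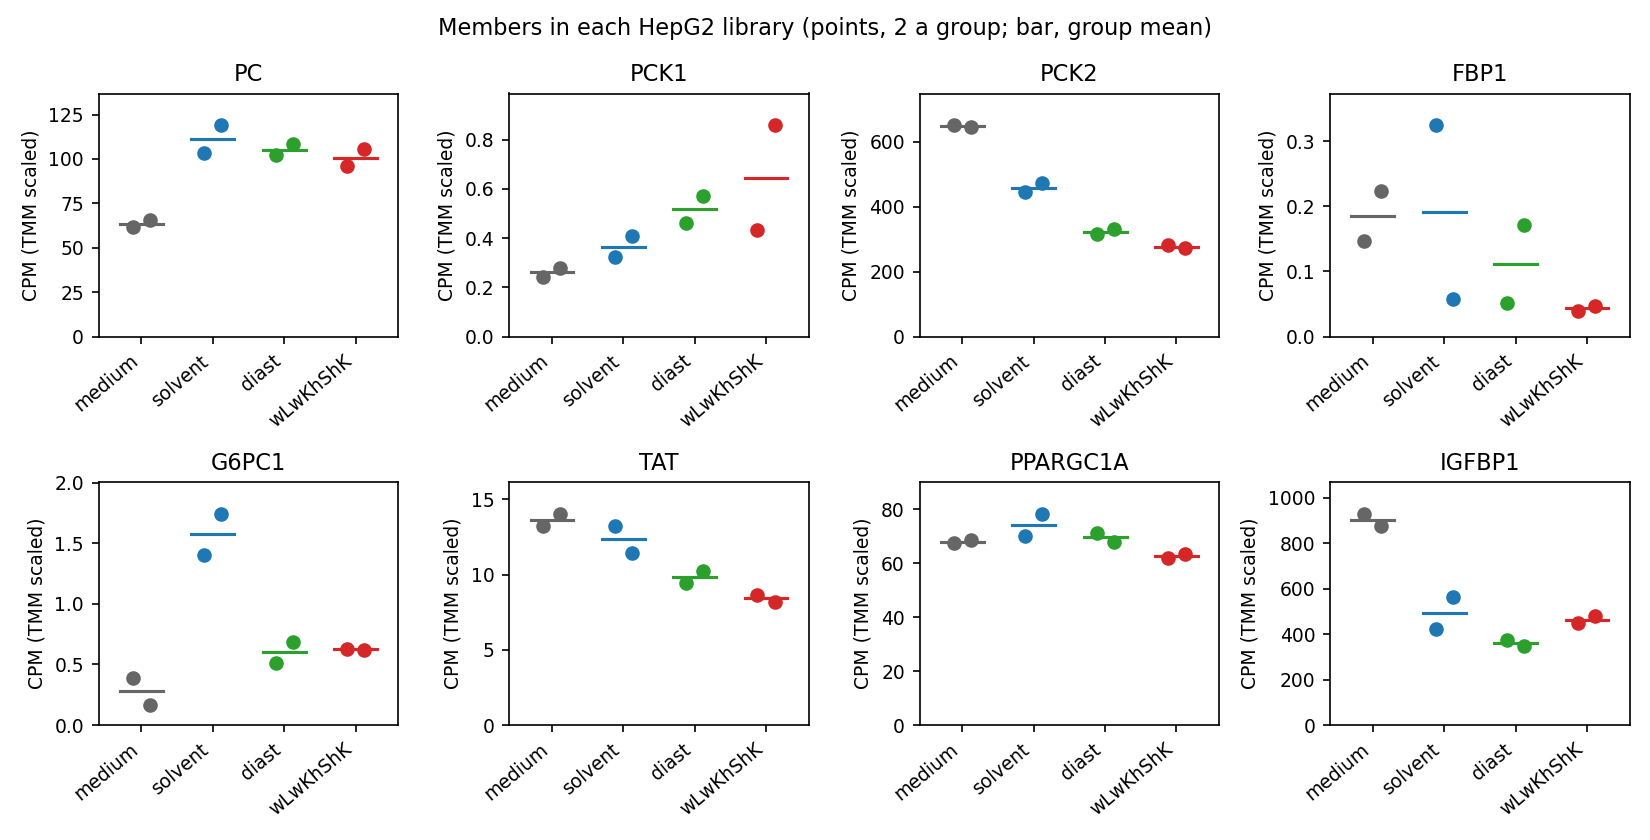
Level of each of the 8 members in each HepG2 library, in CPM (expected counts scaled to a common library total), with 2 points and a mean bar per group and an axis from 0 that differs between genes. PCK2 lies lower in every metabolite group than in medium and PC lies higher, while PCK1, FBP1 and G6PC1 stay below 2 CPM.

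Levels are given as CPM, expected counts scaled to a common library total, with totals adjusted by the trimmed mean of M-values (TMM). CPM is not divided by transcript length, so levels are compared between groups and not between genes. In bulk libraries such as these, fewer cells that express a gene and less RNA per cell cannot be told apart. Differences are log2 values from an edgeR quasi-likelihood fit over all 8 libraries with their standard error (SE), and a gene is said to rise or fall where its p, adjusted over all 15023 tested genes by the Benjamini-Hochberg method, was below 0.05. Of the 8 members, 7 passed the filter on low counts and were tested. PC, PCK2, TAT, PPARGC1A and IGFBP1 were above the filter's level of 0.53 CPM in all 8 libraries. G6PC1 passed through 5 libraries, none of them medium, and PCK1 through 1 wLwKhShK and 1 diast library. Both thus passed only through metabolite groups in which they read higher than in medium. With 2 libraries a group, 61.2% to 75.3% of all tested genes had groups that did not overlap, depending on the comparison. Groups that lie apart are therefore not particular to a member.

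The solvent group against medium compares cells given metabolites of a community that had no peptide with cells labelled as the media control. What the medium cells received is not stated. Community products and anything else that differed between these cultures therefore cannot be told apart in any comparison with medium. In this comparison 4 of the 7 tested members changed (FBP1 was not tested in any), PC and G6PC1 upward and PCK2 and IGFBP1 downward, against 52.4% of all tested genes (27.5% higher and 24.9% lower). The median log2 difference was 0.13 over the 7 tested members and 0.00 over all tested genes. The members' count is close to the background and is not a result about them as a list.

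PC (ENSG00000173599.13) makes oxaloacetate from pyruvate in the mitochondrion, the entry step of the pathway. It read 61.6 and 65.7 CPM in medium, 103.4 and 119.0 in the solvent group, 102.1 and 108.5 in the diast group, and 95.8 and 105.5 in the wLwKhShK group. Both medium libraries were the lowest of the 8, and the 3 metabolite groups overlapped each other. Against medium, PC rose by a log2 difference of 0.80 ± 0.08 in the solvent group (SE, edgeR adjusted p 3.52e-08), which is 1.75-fold. The rise was 0.73 ± 0.08 in the diast group (SE, edgeR adjusted p 1.29e-07) and 0.66 ± 0.08 in the wLwKhShK group (SE, edgeR adjusted p 4.03e-07). These 3 values share the medium libraries and are not independent of each other. Between metabolite groups PC passed no test, with log2 differences of -0.14 for wLwKhShK against solvent (95% interval -0.30 to 0.01), -0.08 for diast against solvent (-0.24 to 0.08) and -0.07 for wLwKhShK against diast (-0.22 to 0.09). The first of these was called without solvent replicate 1 (log2 -0.25, edgeR adjusted p 0.0346). PC values were not whole numbers in any of the 8 libraries, so reads were in part shared out by estimation, and its level is less certain than that of a gene with whole counts.

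PCK2 (ENSG00000100889.11) turns oxaloacetate into phosphoenolpyruvate inside the mitochondrion, the next step. It read 650.5 and 645.9 CPM in medium, 444.2 and 472.1 in the solvent group, 315.1 and 331.2 in the diast group, and 280.7 and 273.6 in the wLwKhShK group. No 2 groups overlapped, and the order was medium, solvent, diast and wLwKhShK from high to low. Separation in any 1 comparison was common, as it held for 61.2% to 75.3% of all tested genes. PCK2 was the only member that passed the test in all 6 comparisons. These comparisons share libraries, and the share of all tested genes called in all 6 was not computed. Against medium it fell by 0.50 ± 0.06 on the log2 scale in the solvent group (SE, edgeR adjusted p 3.83e-07), which is a loss of 29.3%. The fall from medium was 50.2% in the diast group (log2 -1 ± 0.06, SE, edgeR adjusted p 1.59e-11) and 57.2% in the wLwKhShK group (log2 -1.23 ± 0.06, SE, edgeR adjusted p 8.23e-13). Among all tested genes, 4.35% had a lower log2 difference than PCK2 in the wLwKhShK group and 15.8% in the solvent group.

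The fall of PCK2 was also present between metabolite groups, where all cells had community products. Against the solvent group it was lower by 0.72 ± 0.06 with wLwKhShK (log2, SE, edgeR adjusted p 6.04e-09) and by 0.50 ± 0.06 with diast (log2, SE, edgeR adjusted p 3.68e-06). The wLwKhShK and diast groups, the neighbours at the low end, differed less. Their log2 difference was -0.22 ± 0.06 (SE, edgeR adjusted p 0.0122), or 14.2% lower with wLwKhShK. That last call ended when any 1 of the 4 libraries was left out, with log2 values of -0.26 to -0.18 and adjusted p of 0.0508 to 0.151, and it also ended without the filter on low counts (log2 -0.19, edgeR adjusted p 0.0722).

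**Figure D2:**
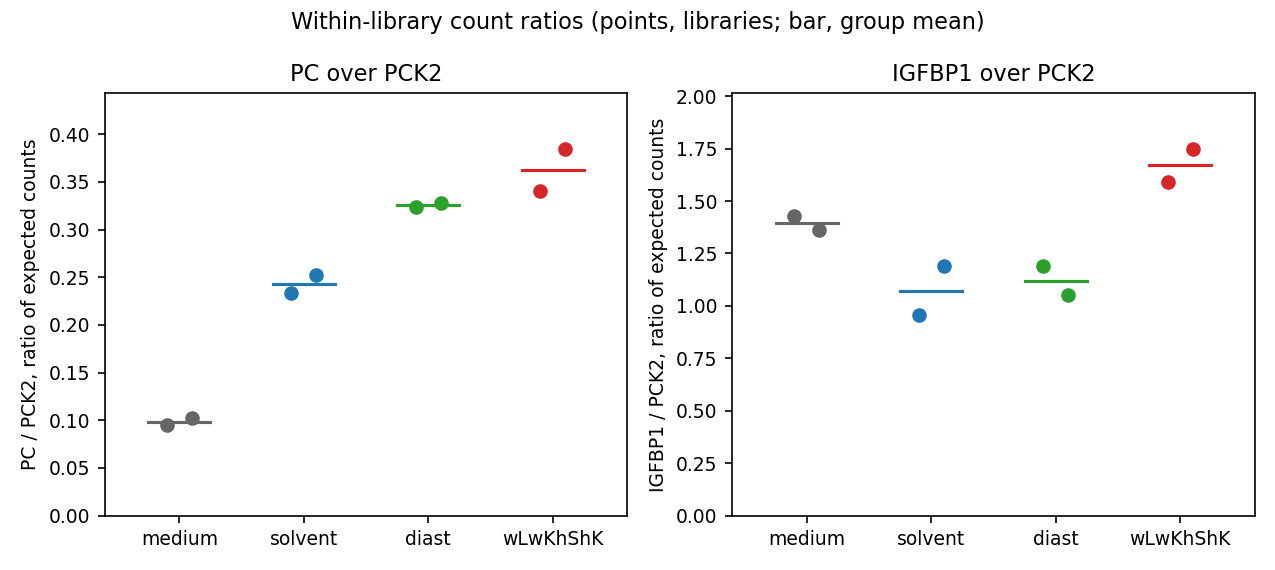
Ratio of the expected counts of PC (left) and IGFBP1 (right) to those of PCK2 within each HepG2 library, with 2 points and a mean bar per group and axes from 0. The PC ratio is lowest in the 2 medium libraries at 0.0947 and 0.102, and the IGFBP1 ratio is highest in the 2 wLwKhShK libraries at 1.59 and 1.75.

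PC and PCK2 catalyse consecutive steps, and their counts went in opposite directions against medium. The ratio of PC to PCK2 counts within a library needs no scaling between libraries, and it was 0.0947 and 0.102 in medium. It was 0.233 and 0.252 in the solvent group, 0.324 and 0.328 in the diast group, and 0.341 and 0.385 in the wLwKhShK group. The groups did not overlap and stood in the order medium, solvent, diast and wLwKhShK from low to high. PC passed no test between metabolite groups, so among them this order mirrors that of PCK2 and is not a further result. Its absolute size also depends on the lengths of both transcripts and is not read here.

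PCK1 (ENSG00000124253.10) is the cytosolic counterpart of PCK2 and a textbook target of glucagon signalling. Its expected counts were 5 and 5 in medium, 6 and 7 in the solvent group, 9 and 10 in the diast group, and 11 and 18 in the wLwKhShK group. Medium was lowest and the wLwKhShK and diast groups overlapped once scaled. It passed no test, with the widest difference between wLwKhShK and medium at log2 1.27 ± 0.75 (SE, 95% interval -0.28 to 2.83, edgeR adjusted p 0.161). The summed counts were 29 against 10, and the ratio of rates was 2.41 (exact 95% counting interval 1.14 to 5.54). That interval covers counting error only, and PCR reads are not independent molecules.

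FBP1 (ENSG00000165140.10) removes a phosphate from fructose 1,6-bisphosphate. It had 1 to 6 counts per library and was not tested. Summed over each pair of libraries it had 7 counts in medium, 7 in the solvent group, 4 in the diast group and 2 in the wLwKhShK group. The ratio of wLwKhShK to medium rates was 0.237, with an exact interval from 0.024 to 1.25, so a difference was not detectable at this depth. Tested without the filter, its edgeR adjusted p ran from 0.531 to 1 over the 6 comparisons.

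G6PC1 (ENSG00000131482.9) carries out the last step, the release of glucose. Its expected counts were 8 and 3 in medium, 26 and 30 in the solvent group, 10 and 12 in the diast group, and 16 and 13 in the wLwKhShK group. Both solvent libraries were above the other 6, and medium was lowest. The solvent group was higher than medium by a log2 difference of 2.45 ± 0.65 (SE, 95% interval 1.1 to 3.8, edgeR adjusted p 0.00333), and only 4.63% of tested genes had a higher one. The summed counts were 56 against 11, and the ratio of rates was 5.49 (exact interval 2.84 to 11.6). G6PC1 was tested because it reached 0.53 CPM in 5 libraries, none of them medium, so it entered through groups in which it read high. It passed the test under all 9 alternatives, but only the fit without the filter (log2 2.45, edgeR adjusted p 0.00232) is free of that selection. Log2 values ran from 2 without medium replicate 2 to 3.17 without medium replicate 1, so the size rests on few medium counts.

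The other G6PC1 comparisons passed no test. The wLwKhShK group differed from the solvent group by log2 -1.32 ± 0.58 (SE, edgeR adjusted p 0.0741) and the diast group by -1.39 ± 0.59 (SE, edgeR adjusted p 0.107). Fitting only the 4 libraries of the first of these brought its adjusted p to 0.0462. Against medium the wLwKhShK group read log2 1.13 (95% interval -0.28 to 2.54) and the diast group 1.06 (-0.38 to 2.51), and both intervals include 0. These were 1.83 and 1.77 without medium replicate 1, and 0.67 and 0.61 without medium replicate 2, and passed no test in either setting.

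TAT (ENSG00000198650.10) starts the breakdown of tyrosine, whose carbon can feed gluconeogenesis, and it is a classic glucocorticoid-induced liver gene. It read 13.3 and 14.0 CPM in medium, 13.3 and 11.4 in the solvent group, 9.42 and 10.2 in the diast group, and 8.67 and 8.15 in the wLwKhShK group. Solvent replicate 1 read almost as medium replicate 1, and the wLwKhShK and diast groups lay below all 4 of their libraries. TAT was 38.2% lower than medium in the wLwKhShK group (log2 -0.69 ± 0.14, SE, edgeR adjusted p 0.000263) and 28.1% lower in the diast group (log2 -0.48 ± 0.14, SE, edgeR adjusted p 0.00721). The second call ended without diast replicate 1 (log2 -0.42, edgeR adjusted p 0.0685). The solvent group differed from medium by log2 -0.14 ± 0.14 (SE, 95% interval -0.43 to 0.14) and passed no test. Against the solvent group TAT was lower with wLwKhShK, by log2 -0.55 ± 0.14 (SE, edgeR adjusted p 0.00356), a call that ended without solvent replicate 1 (log2 -0.45, edgeR adjusted p 0.054). With diast the value was -0.33 ± 0.14 (SE, edgeR adjusted p 0.105).

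**Figure D3:**
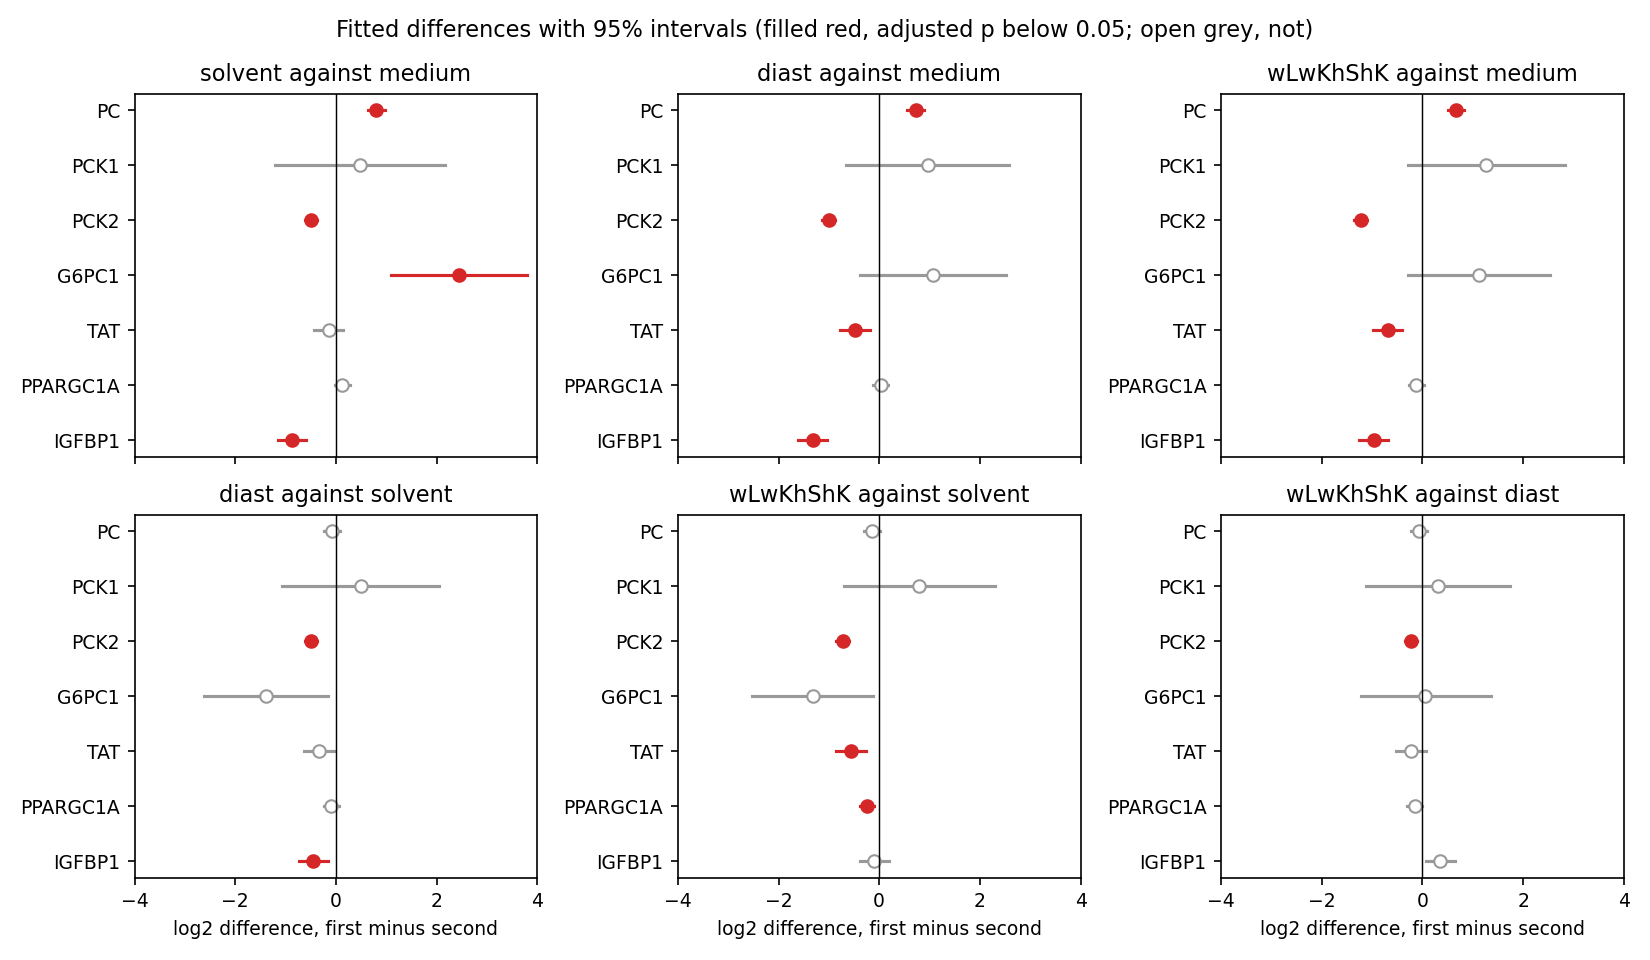
Fitted log2 difference (point) and its 95% interval (line) for the 7 tested members in the 6 comparisons, filled red where the adjusted p was below 0.05 and open grey otherwise. PCK2 is red in all 6 panels, and the lines of PCK1 and G6PC1, which had at most 18 and 30 counts a library, are the longest.

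PPARGC1A (ENSG00000109819.8) encodes a coactivator that raises transcription of gluconeogenic genes when bound to their transcription factors. It read 67.4 and 68.6 CPM in medium, 70.2 and 78.4 in the solvent group, 71.3 and 68.0 in the diast group, and 61.8 and 63.5 in the wLwKhShK group. The range over the 8 libraries was narrow, and the wLwKhShK libraries were the lowest. No metabolite group passed the test against medium, with log2 differences of 0.13 (95% interval -0.02 to 0.28) in the solvent group, 0.03 (-0.12 to 0.18) in the diast group and -0.12 (-0.27 to 0.03) in the wLwKhShK group. Each of these intervals excludes a change as large as that of PCK2 in the same comparison. PPARGC1A was lower with wLwKhShK than with solvent by log2 -0.25 ± 0.07, a difference of 15.6% (SE, edgeR adjusted p 0.00918). That call ended without solvent replicate 2 (log2 -0.16, edgeR adjusted p 0.159) and without wLwKhShK replicate 1 (log2 -0.23, edgeR adjusted p 0.0597).

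IGFBP1 (ENSG00000146678.9) binds insulin-like growth factors in blood and is repressed by insulin in liver. It read 929.4 and 876.3 CPM in medium, 424.4 and 563.2 in the solvent group, 374.0 and 349.1 in the diast group, and 446.9 and 477.6 in the wLwKhShK group. Medium was highest and diast lowest, and both wLwKhShK libraries lay between the 2 solvent ones. Against medium it fell by 45.3% in the solvent group (log2 -0.87 ± 0.12, SE, edgeR adjusted p 0.000525), by 48.8% in the wLwKhShK group (log2 -0.97 ± 0.12, SE, edgeR adjusted p 0.000267) and by 60.0% in the diast group (log2 -1.32 ± 0.12, SE, edgeR adjusted p 4.53e-05). In the diast group only 2.5% of tested genes had a lower log2 difference.

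The solvent replicates of IGFBP1 were 0.41 apart on the log2 scale, the largest gap among the 5 members that were above the filter's level in all libraries. Comparisons with the solvent group depended on which of them was kept. The wLwKhShK group differed from it by -0.10 ± 0.12 (log2, SE, edgeR adjusted p 0.586), by -0.29 without solvent replicate 1 (edgeR adjusted p 0.00855) and by 0.12 without solvent replicate 2 (edgeR adjusted p 0.273). The diast group was lower than the solvent group by log2 -0.45 ± 0.12 (SE, edgeR adjusted p 0.0376). That call ended in 5 of 9 alternatives, among them solvent replicate 2 left out (log2 -0.23, edgeR adjusted p 0.0705), either diast library left out (log2 -0.50 and -0.40, adjusted p 0.0705 and 0.134), and a fit of the 4 libraries alone (log2 -0.46, edgeR adjusted p 0.24).

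The other comparisons with medium held as many changed members as the first. In the wLwKhShK group 4 of the 7 tested members changed against medium, PC upward and PCK2, TAT and IGFBP1 downward, against 52.8% of tested genes (28.3% higher and 24.5% lower). In the diast group 4 of the 7 changed against medium, PC upward and PCK2, TAT and IGFBP1 downward, against 52.7% of tested genes (28.2% higher and 24.5% lower). The median log2 difference over the 7 tested members was -0.12 with wLwKhShK and 0.03 with diast, against 0.03 and 0.05 over all tested genes. These shares are close to the background, and all 3 comparisons share the medium libraries.

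**Figure D4:**
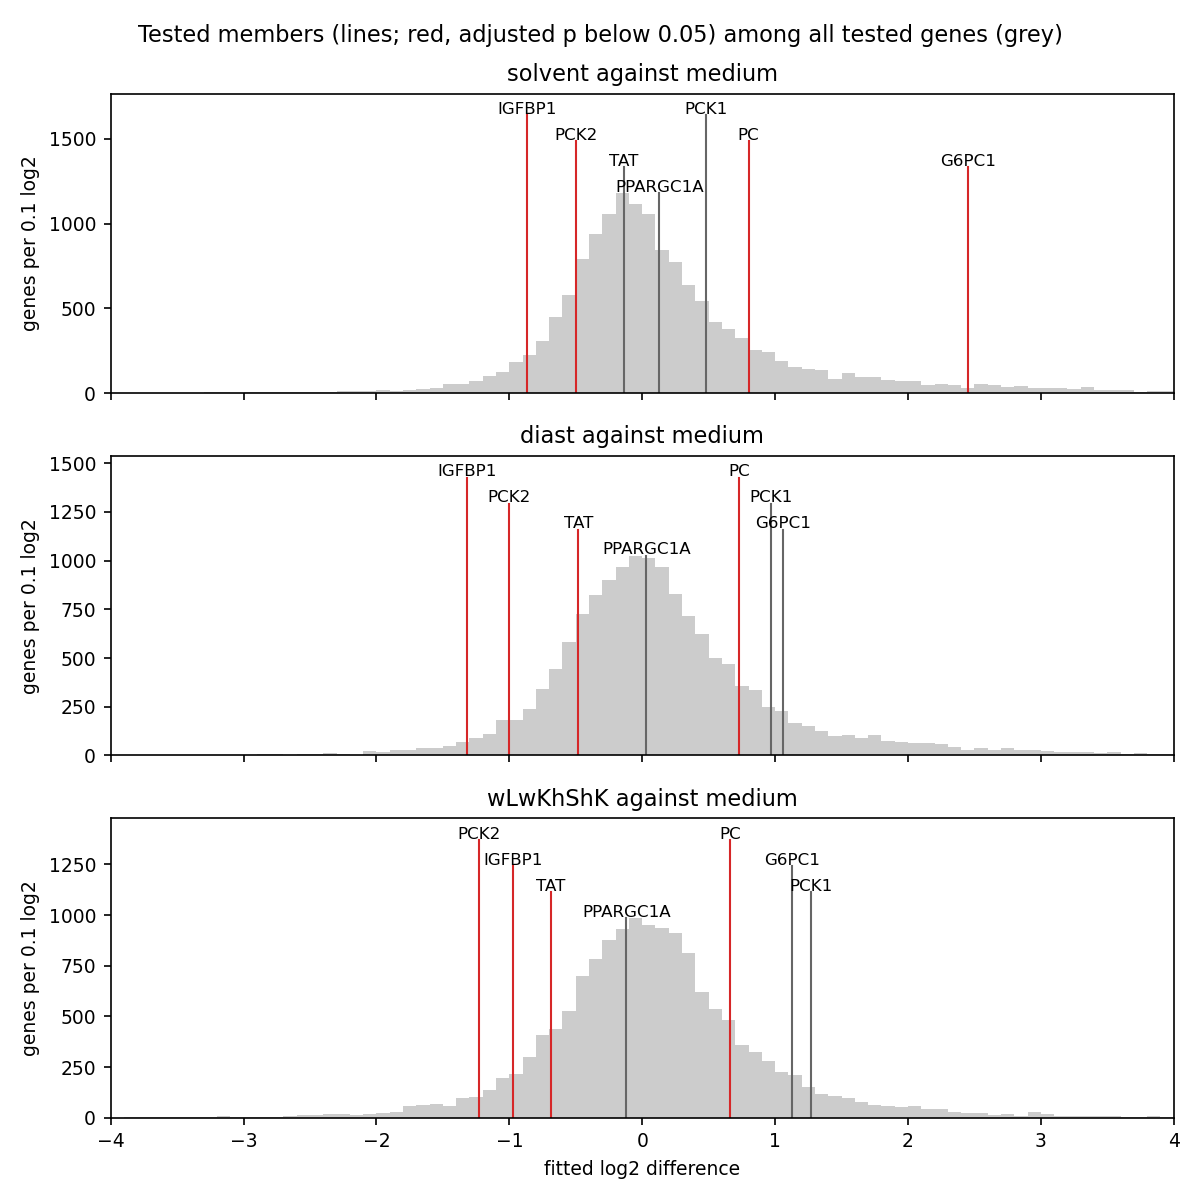
Number of tested genes per 0.1 of fitted log2 difference (grey) in the 3 comparisons with medium, with a line at each tested member, red where its adjusted p was below 0.05; genes beyond a log2 difference of 4 either way are outside the axis and number 272 in the solvent, 195 in the diast and 107 in the wLwKhShK panel. PCK2 and IGFBP1 lie on the left flank in each panel, PC on the right flank, and PPARGC1A near the centre.

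The solvent group served as the reference for what treating the community changed in the cells. With wLwKhShK, 3 of the 7 tested members were lower, PCK2, TAT and PPARGC1A, against 20.4% of tested genes called lower and 40.8% called in either direction. None of the 7 passed the test as higher. With diast 2 of the 7 were lower, PCK2 and IGFBP1, against 10.7% of tested genes called lower, 10.4% called higher and 21.1% called either way, and none passed as higher. In the diast comparison 1566 of all genes were higher and 1606 lower, and 1196 and 1864 by library-size scaling. Leaving out any 1 of its 4 libraries lowered the calls over all genes from 3172 to between 1730 and 1961. The medians over the 7 tested members were -0.25 and -0.33, against 0.00 over all tested genes in both. Counted either way, the members called in these 2 comparisons are close to the background and are not a result about them as a list. The calls of TAT, PPARGC1A and IGFBP1 here ended in some alternatives, as given above. The 2 comparisons share the solvent libraries.

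The antimicrobial peptide and its diastereomer were given to the community, and at the same dilution and time their metabolites were compared directly. Of the 7 tested members PCK2 alone passed this test, being lower with wLwKhShK, against 17.7% of tested genes called (8.56% higher and 9.19% lower). The calls over all genes, 2666 with every library, were fewer when any 1 of the 4 libraries was left out. The drop was smallest without wLwKhShK replicate 2. IGFBP1 lay the other way, at a log2 difference of 0.35 ± 0.12 (SE, 95% interval 0.07 to 0.64, edgeR adjusted p 0.0899), 1.28-fold higher with wLwKhShK. It passed the test with the 4 libraries fitted alone (log2 0.36, edgeR adjusted p 0.000171) and without the filter on low counts (log2 0.39, edgeR adjusted p 4.45e-06). The ratio of IGFBP1 to PCK2 counts was 1.59 and 1.75 in the wLwKhShK libraries. In the diast libraries it was 1.19 and 1.05, and the groups did not overlap. Built from the same counts as the differences above, this ratio is not separate support. For the other members the intervals of wLwKhShK minus diast were -0.22 to 0.09 for PC, -0.52 to 0.08 for TAT, -0.30 to 0.00 for PPARGC1A, -1.13 to 1.74 for PCK1 and -1.23 to 1.36 for G6PC1. The last 2 leave room for differences of more than 2-fold either way.

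As a description over 4 groups of 2 libraries, log2 CPM of PCK2 correlated at r = 0.94 with TAT, 0.84 with IGFBP1, -0.82 with PCK1, -0.71 with PC and -0.19 with G6PC1. PCK1 and G6PC1 had at most 18 and 30 counts a library, and PCK1 levels were about the size of the 0.5 CPM pseudocount. Their r values are therefore uncertain, and PCK1 passed no test. PPARGC1A correlated with PCK2 at 0.42 and with IGFBP1 at 0.05. The gene whose pattern was most like that of PCK2 was ENSG00000164855.15 (r = 0.9969 over 8 libraries), and that most like PC was ENSG00000186350.10 (r = 0.996). These IDs are not paired with names in the tables. Many genes had such patterns, as 382 correlated with PCK2 above 0.95 and 415 with PC.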

How the data were processed

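The RNA-seq tables deposited by the authors give an expected count for each gene, not normalized. The submitters' processing notes name RSEM 1.2.31, STAR 2.5.1b, fastp 0.24.0 and the build hg38. The annotation is not given in the sources used here. Ensembl entries (58230) were kept and rounded, and the 649 numeric and 97 spike-in entries were left out. They held 1.45e-05% of counts, and the spike-ins held 0. Of the values of genes with any count, 17.4% were not whole.

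Groups came from sample titles. edgeR 4.0.16 (R 4.3.3, limma 3.58.1) filtered genes (filterByExpr, minimum count 10), scaled by TMM and fitted 1 robust quasi-likelihood model over the 8 libraries. SE is the absolute log2 difference over the square root of F, and 95% intervals use it. Counting intervals are exact Poisson ones. The fit was tested on simulated data for solvent against medium, with 100 genes changed 1.5-fold and 100 changed 2-fold among 15023. It recovered 58% and 73% of them, with 8 false calls. The simulation changed far fewer genes than were called in these data, and they were drawn at random over all levels. Its rates therefore do not carry over to a given member. A member that passed no test may still differ. DESeq2 1.42.0 was an alternative.

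The members and lists were chosen with earlier results of these data known. The text names the 8 members, and of the genes most like each (highest Pearson r of log2 CPM, pseudocount 0.5) the first for PC and PCK2. Those lists (other pathway enzymes, regulators, cell type markers) and human promoter sequences were not analysed here: the tables pair no symbols with IDs. Symbols of the members come from the rule that chose them. Deviations of same-numbered replicates were nearly uncorrelated over all tested genes (r from -0.034 to 0.069 over 6 pairs of groups). Reporter assay tables were not used.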

Additional observations from a re-analysis of the deposited data

Results flagged for a closer look

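PCK2 was singled out as the only tested member called in the direct comparison of the wLwKhShK and diast groups, which is given above. Their direct log2 difference was -0.22 (edgeR adjusted p 0.0122), a call that ended in 5 of 9 alternatives. Both wLwKhShK libraries lay below both diast libraries, but 61.2% of all tested genes had no overlap in this comparison.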

How the results depend on the processing

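Of 18 member differences that passed the test, 13 kept direction and call in all 9 alternatives run for each (library-size scaling, DESeq2, no filter, only the 4 libraries compared, a replicate block, and each library left out), and none of the 18 turned direction. The other 5, whose values stand above, lost the call in 14 settings. They were IGFBP1 for diast against solvent, PCK2 for wLwKhShK against diast, TAT and PPARGC1A for wLwKhShK against solvent, and TAT for diast against medium. Of 24 differences not called, 15 were unchanged in every alternative that gave an adjusted p, and for the other 9 the call was gained in 5 settings and the direction turned in 7. DESeq2 gave no adjusted p for PCK1 and G6PC1 in diast against solvent and in wLwKhShK against diast, so 13 of the 15 were tested in all 9 alternatives. The cause was not tested for any of these.

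Members called for diast against solvent numbered 1 instead of 2 with only the 4 libraries compared and 1 with the replicate block, and 1 to 2 with a library left out, when all genes called numbered 1730 to 1961. For wLwKhShK against diast they numbered 2 instead of 1 with only the 4 libraries and 0 without each library in turn (edgeR), when all genes called numbered 1081 to 2228. Some log2 differences that were not called with all 8 libraries moved when a library was left out. They ranged from -0.29 to 0.12 for IGFBP1 (wLwKhShK against solvent) and from -0.19 to 0.03 for PC (diast against solvent). PPARGC1A (diast against medium) ranged from -0.01 to 0.07. For wLwKhShK against diast the ranges were -0.14 to 0 for PC, -0.25 to 0.73 for PCK1 and -0.13 to 0.28 for G6PC1. The labels state no pairing of same-numbered libraries, whose deviations were nearly uncorrelated over all tested genes. The replicate block still gave more calls over all genes in each of the 6 comparisons. For wLwKhShK against diast it gave 3404 instead of 2666. The reason was not tested. With 2 libraries a group, and 1 to 30 counts a library for PCK1, FBP1 and G6PC1, depth limits these 3 members most.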
